A study of Mus musculus with 16 samples.

Results

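The genes described are 55 factors of ribosome biogenesis and of RNA polymerase I transcription, named by symbol for their role in the pathway. The rule itself uses no measured value, but the list was chosen with earlier results of these data known, so it was not tested as a set. All 55 symbols were found among the 35968 genes of the tables, all 55 are annotated as protein-coding, and all 55 passed the filter on low counts that left 18944 genes for testing. By role the list holds 6 genes of RNA polymerase I transcription, 3 of the box C/D and 4 of the H/ACA small nucleolar ribonucleoprotein particles (snoRNPs), 3 nucleolar scaffold proteins, 11 proteins of the small subunit processome, 7 DEAD-box helicases, 5 late small subunit factors and 16 large subunit factors.

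Poly(A) RNA was sequenced from mouse embryonic stem cells (ESCs), pluripotent cells derived from the early embryo. The 4 groups, with 4 libraries each, were Dgcr8 knockout (KO) cells paused in culture with an mTOR inhibitor (mTORi), KO cells in normal ESC culture, wild-type (WT) cells paused in the same way and WT cells in normal ESC culture. Dgcr8 is the RNA-binding partner of Drosha in the cleavage of primary microRNA transcripts, mTOR is a kinase that couples growth to nutrients, and the design asks how cells without Dgcr8 enter the paused state. The labels give day 2 of mTORi culture for the paused libraries and 800000 cells per sample, and they name neither the inhibitor nor the deleted part of Dgcr8.

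Ribosomes are built in the nucleolus, where RNA polymerase I transcribes a long precursor that is cut, chemically modified under the guidance of small nucleolar RNAs (snoRNAs), folded and joined with ribosomal proteins. Assembly starts with the small subunit processome, a large particle on the nascent precursor, and goes on along separate routes for the small and the large subunit, with helicases and GTPases acting at single steps. In growing cells the pathway is driven by mTOR signalling and by Myc, and ESCs have large nucleoli. Ribosomal RNA itself carries no poly(A) tail and was not measured here, so the values are mRNA levels of the factors.

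The libraries held 88377380 to 116646028 estimated counts. The 8 ESC markers examined (among them Pou5f1 and Sox2) all averaged above 1 CPM (counts scaled to the library's size with edgeR) in every group and summed to 5109 to 6851 CPM, against 13.5 to 36.7 CPM for 8 fibroblast markers, 13.2 to 43.5 CPM for 6 primitive endoderm markers, 21.4 to 32.8 CPM for 6 trophoblast markers, 0.872 to 1.99 CPM for 4 mesoderm markers and 123 to 190 CPM for 4 neural markers. The neural sum, mostly Tubb3, was 123 to 139 CPM in paused KO, 168 to 190 CPM in normal KO, 125 to 146 CPM in paused WT and 137 to 173 CPM in normal WT libraries, and its part in the results was not tested. Among the WT cells of normal culture, libraries 1 and 2 differed from libraries 3 and 4 by more than within either pair (chi-square median over genes 9.10 to 12.6 against 2.04 to 2.44). A smaller split of this kind was seen in paused WT libraries (3.42 to 4.45 against 1.28 to 2.06) and in normal KO libraries (3.33 to 5.30 against 1.88 to 2.62). In paused KO libraries the values between pairs (2.13 to 5.02) spanned those within (3.15 and 3.36). Values with 1 pair alone are given below for the calls of genes shown by library that a pair alone ended. The labels name no batch. Dgcr8 mRNA averaged 181 ± 7.33 CPM in paused KO cells, 250.3 ± 4.13 CPM in normal KO cells, 53.9 ± 2.43 CPM in paused WT cells and 47.3 ± 1.81 CPM in normal WT cells (SD, n = 4 each); counts over the whole gene do not check a deletion of unknown extent. The Y-linked gene Ddx3y averaged 0.306 ± 0.0456 and 0.156 ± 0.0320 CPM in paused and normal KO cells, against 92.3 ± 6.18 and 104 ± 3.96 CPM in paused and normal WT cells, so KO and WT cells also differ in Y-linked expression, and effects of Dgcr8 loss and of the cell line cannot be told apart.

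Promoter windows from RefSeq (GRCm38.p6), from 250 bases before to 50 bases after an annotated start, were found for 49 of the 55 genes, 58 windows in all. The letters CACGTG, the core of the E-box that Myc and Max bind, were present in 9 of the 58 windows (15.5%), against 9.10% of the windows of all tested genes. The letters CCGGAAG on either strand, the core of ETS family sites, were in 22 of the 58 windows (37.9%), against 14.2% of the windows of all tested genes, and the palindrome GCGCATGCGC, a site of NRF1, was in 0 of the 58 windows, against 1.69%. CACGTG and GCGCATGCGC read the same on both strands, no printed match overlaps another, and a match is a description of the sequence, not evidence of binding. The windows below show the 3 genes with the largest mean fall under pausing among those with CACGTG (Utp4, Utp20 and Ltv1) and 3 genes with large falls among those with CCGGAAG but without CACGTG (Nip7, Nhp2 and Polr1e), a set added after the motif counts were seen. Capitals mark the matches to CACGTG and to CCGGAAG or its reverse complement, and each line runs 5′ to 3′ along the gene's strand.
Utp4 promoter, chr8:106893390-106893689, plus strand: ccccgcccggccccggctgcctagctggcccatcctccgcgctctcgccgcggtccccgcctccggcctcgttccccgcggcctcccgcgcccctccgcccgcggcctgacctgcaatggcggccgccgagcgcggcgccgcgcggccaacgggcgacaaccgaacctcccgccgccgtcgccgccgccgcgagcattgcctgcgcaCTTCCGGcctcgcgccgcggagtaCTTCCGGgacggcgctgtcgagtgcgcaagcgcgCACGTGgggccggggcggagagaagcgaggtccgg
Utp20 promoter, chr10:88826765-88827064, minus strand: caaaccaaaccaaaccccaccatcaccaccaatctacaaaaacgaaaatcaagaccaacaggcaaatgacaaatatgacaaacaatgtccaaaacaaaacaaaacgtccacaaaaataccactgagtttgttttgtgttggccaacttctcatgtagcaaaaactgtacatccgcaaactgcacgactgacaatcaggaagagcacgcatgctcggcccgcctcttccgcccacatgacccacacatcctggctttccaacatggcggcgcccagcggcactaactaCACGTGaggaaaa
Ltv1 promoter, chr10:13193088-13193387, minus strand: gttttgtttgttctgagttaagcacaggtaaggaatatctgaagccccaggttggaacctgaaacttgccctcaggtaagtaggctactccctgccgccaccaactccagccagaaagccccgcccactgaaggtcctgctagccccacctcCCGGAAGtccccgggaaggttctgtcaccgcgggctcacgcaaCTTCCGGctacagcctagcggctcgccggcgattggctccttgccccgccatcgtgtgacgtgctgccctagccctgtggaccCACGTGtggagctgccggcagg
Nip7 promoter, chr8:107056627-107056926, plus strand: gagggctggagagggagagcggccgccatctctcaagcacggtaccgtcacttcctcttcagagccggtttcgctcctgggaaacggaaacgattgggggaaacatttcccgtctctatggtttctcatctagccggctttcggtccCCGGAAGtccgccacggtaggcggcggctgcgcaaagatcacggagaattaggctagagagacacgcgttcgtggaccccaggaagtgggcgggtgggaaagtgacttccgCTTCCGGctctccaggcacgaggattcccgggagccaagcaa
Nhp2 promoter, chr11:51619523-51619822, plus strand: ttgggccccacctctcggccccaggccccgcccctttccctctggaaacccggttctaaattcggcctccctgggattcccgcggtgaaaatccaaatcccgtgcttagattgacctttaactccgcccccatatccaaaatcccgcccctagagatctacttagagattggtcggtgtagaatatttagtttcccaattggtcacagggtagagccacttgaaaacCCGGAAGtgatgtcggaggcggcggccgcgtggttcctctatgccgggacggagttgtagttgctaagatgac
Polr1e promoter, chr4:45018359-45018658, plus strand: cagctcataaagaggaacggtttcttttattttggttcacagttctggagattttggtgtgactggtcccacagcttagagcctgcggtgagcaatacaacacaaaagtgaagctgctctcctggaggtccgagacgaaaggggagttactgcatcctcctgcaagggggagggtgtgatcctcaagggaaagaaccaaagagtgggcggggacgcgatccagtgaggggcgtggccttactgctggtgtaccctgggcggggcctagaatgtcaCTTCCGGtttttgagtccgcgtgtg
In Utp4, Utp20 and Ltv1 the E-box core lies downstream of the annotated start, with its first base at position 16, 38 and 29. Both strands of CCGGAAG occur in these windows: Ltv1 has matches at −98 and −55, Utp4 at −43 and −19, Nip7 at −103 and 9, Nhp2 at −23 and Polr1e at 26. The median log2 fold change under pausing of the 9 genes with CACGTG was −0.46 in KO cells and −0.40 in WT cells, and that of the 40 matched genes without it −0.52 in KO cells and −0.53 in WT cells. With CCGGAAG the medians over 21 genes were −0.49 in KO cells and −0.51 in WT cells, and without it, over 28 genes, −0.50 in KO cells and −0.52 in WT cells.

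Pausing lowered the mRNA of nearly the whole list in both genotypes. Of the 55 genes, 53 fell and 0 rose in paused against normal KO cells, where 32.8% of all tested genes fell and 34.4% rose, and 48 fell and 1 rose in paused against normal WT cells, where 27.5% of all tested genes fell and 33.3% rose. The 2 genes that did not pass the test in KO cells were Ubtf (−0.02) and Noc2l (0.08, log2 fold change), and the 6 that did not in WT cells were Ebna1bp2, Rrp1b, Gnl2, Ubtf, Nop56 and Utp15. The median log2 fold change of the list was −0.49 in KO cells and −0.51 in WT cells, against 0.02 and 0.04 over all tested genes in KO and WT cells. Changes were called with edgeR's quasi-likelihood F test at a Benjamini-Hochberg adjusted p under 0.05 over all tested genes, and "rose" and "fell" refer to that. Paused and normal libraries did not overlap for 52 falling genes in KO cells, where this held for 31.3% of all tested genes, and for 48 genes with lower values in WT cells, where it held for 24.2%. In bulk RNA, fewer cells that express a gene and less of its mRNA per cell cannot be told apart, and a fall is relative to the other mRNAs of the library.

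Most falls were moderate. Falls of 1 or more in log2 units were seen for 4 genes in KO cells (Nop16, Nop10, Ddx21 and Nhp2) and for 1 gene, Nop16, in WT cells. By the test, 47 genes fell in both genotypes, 6 in KO cells alone, 1 (Noc2l) in WT cells alone and 1 (Ubtf) in neither. This does not by itself show that the responses differed, and no share over all tested genes was computed for these joint counts. Together the 55 genes took 1.36% ± 0.0515 of a library's counts in paused KO cells, 1.96% ± 0.0434 in normal KO cells, 1.40% ± 0.0373 in paused WT cells and 1.96% ± 0.0260 in normal WT cells (SD, n = 4 each), and Ncl and Npm1 made up 31.6% to 38.6% of that sum. Paused libraries of both genotypes thus lay below all normal libraries, with 1.30% to 1.44% in paused and 1.90% to 2.00% in normal culture.

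**Figure D1:**
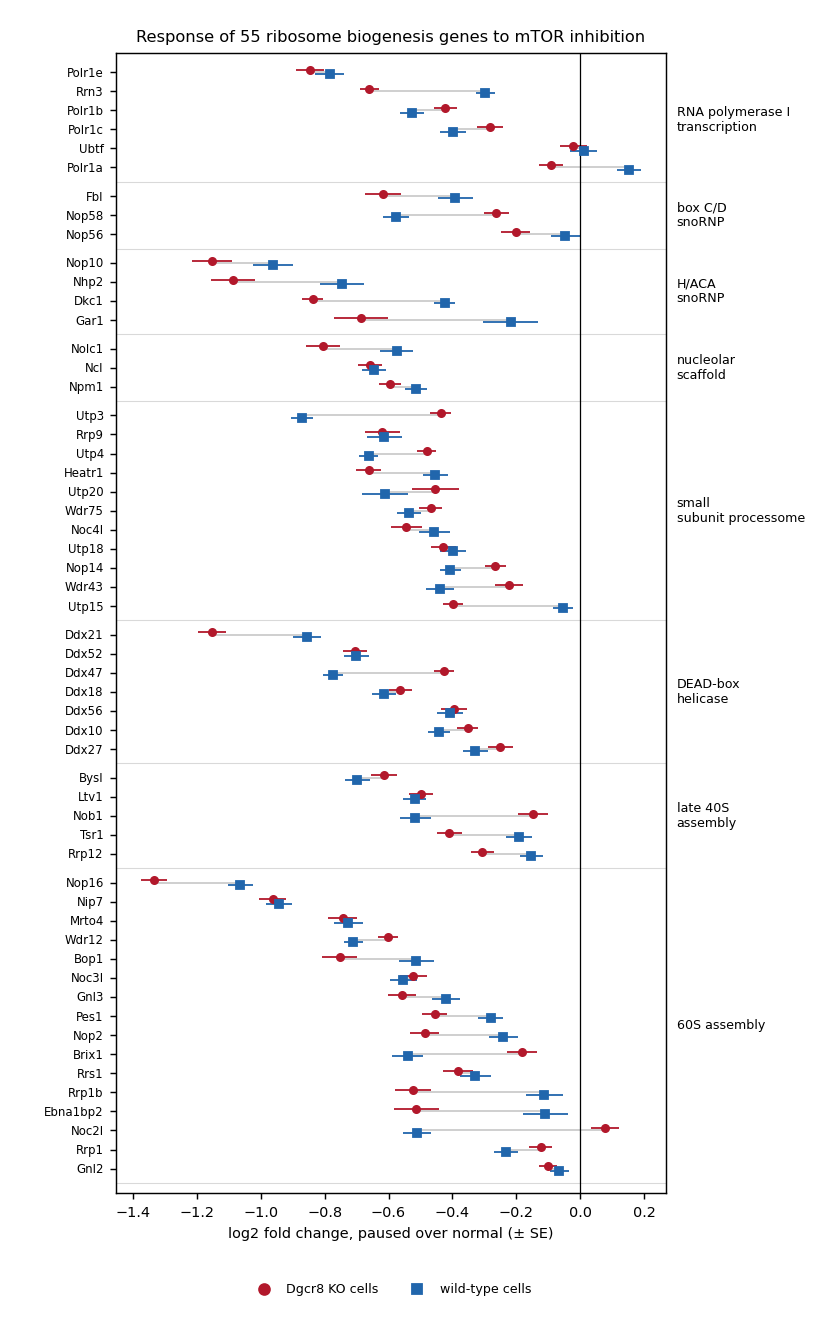
Log2 fold change of paused over normal culture (x axis, bars are SE) for each of the 55 genes, grouped by role, in KO cells (red circles) and WT cells (blue squares), from 4 libraries per group. All points lie left of 0 except Noc2l in KO cells and Polr1a and Ubtf in WT cells; Nop16 is lowest in both genotypes, and Noc2l has the widest gap between them.

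RNA polymerase I genes responded unequally. Of the 6 genes, 5 fell in KO cells, and in WT cells 4 fell and 1 rose. The strongest fall was that of Polr1e (chr4:45018583-45036565 in GRCm38, as all gene positions here, from GENCODE M21), a subunit of the heterodimer that helps initiation and elongation. Polr1e measured 26.3, 25.3, 27.8 and 26.03 CPM in the 4 paused KO libraries and 48.8, 46.2, 45.98 and 48.5 CPM in the 4 normal KO libraries. In WT cells the values were 28.9, 26.9, 29.3 and 30.4 CPM when paused and 51.03, 51.3, 47.3 and 49.3 CPM in normal culture. All paused libraries lay below all normal ones, with log2 fold changes of −0.85 ± 0.0449 (SE) in KO cells and −0.78 ± 0.0448 in WT cells (edgeR adjusted p = 1.15e-11 and 4.02e-11).

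Rrn3 (chr16:13780708-13814839) encodes the factor that makes the polymerase competent to initiate and is itself a target of mTOR signalling. It measured 245, 232, 248 and 233 CPM in paused KO cells and 371, 369, 388 and 384 CPM in normal KO cells. Rrn3 in WT cells measured 299, 303, 306 and 301 CPM when paused and 376, 373, 367 and 369 CPM in normal culture. The normal libraries of both genotypes overlapped, between 367 and 388 CPM, and the paused KO libraries were the lowest. Rrn3 fell by 36.7% in KO cells and by 18.6% in WT cells, and the difference of the responses was −0.36 ± 0.0420 on the log2 scale (edgeR adjusted p = 2.45e-06).

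Polr1a (chr6:71909053-71984935), the largest and catalytic subunit, was the only gene of the list that rose in WT cells. It measured 222, 215, 222 and 219 CPM in paused KO cells and 224, 236, 243 and 233 CPM in normal KO cells. WT cells had 271, 277, 281 and 278 CPM when paused and 243, 232, 261 and 260.4 CPM in normal culture, without overlap. The log2 fold changes were −0.09 ± 0.0370 in KO cells and 0.15 ± 0.0370 in WT cells (edgeR adjusted p = 0.0365 and 0.00153), and the responses differed by −0.24 (adjusted p = 0.00111). The small fall in KO cells lost its call in 10 of the alternative fits, among them libraries 1 and 2 alone (−0.07, adjusted p = 0.18) and the fit without KO normal library 3 (−0.07, adjusted p = 0.125), while the rise in WT cells held with libraries 1 and 2 alone (0.21) and with libraries 3 and 4 alone (0.10). The protein-coding transcript Polr1a-201 held 22.3% ± 1.97 of the gene's TPM in paused KO cells, 19.2% ± 0.511 in normal KO cells, 18.7% ± 1.40 in paused WT cells and 16.003% ± 0.791 in normal WT cells (SD, n = 4 each), so most of the gene's estimate came from transcripts annotated as retained introns or as targets of nonsense-mediated decay (NMD).

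Polr1b, the second largest subunit, measured 146, 136, 150.3 and 143 CPM in paused KO cells and 190.1, 189, 195 and 197 CPM in normal KO cells. Polr1b in WT cells measured 140.0, 139, 153 and 149 CPM when paused and 208, 208, 209 and 214 CPM in normal culture. Polr1c, an assembly subunit shared with RNA polymerase III, measured 136, 133, 137 and 139 CPM in paused KO cells and 169.9, 162, 167 and 164 CPM in normal KO cells. Polr1c in WT cells measured 138, 126, 141 and 138 CPM when paused and 164, 181, 181 and 189 CPM in normal culture. Both fell without overlap in both genotypes, Polr1b by 25.4% in KO and 30.6% in WT cells and Polr1c by 17.8% in KO and 24.2% in WT cells. Ubtf, which binds the ribosomal DNA repeats and keeps them in an open state, had overlapping groups. It measured 348, 335, 355 and 333 CPM in paused KO cells, 336, 331, 361 and 364 CPM in normal KO cells, 359, 363, 379 and 375 CPM in paused WT cells and 338, 366, 381 and 379 CPM in normal WT cells. Its log2 fold changes were −0.02 ± 0.0421 in KO cells and 0.01 ± 0.0421 in WT cells (edgeR adjusted p = 0.672 and 0.836).

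All 4 H/ACA proteins, which bind the guide RNAs for pseudouridylation and also belong to telomerase, fell in both genotypes. Their median log2 fold change was −0.96 in KO cells and −0.59 in WT cells. Nop10 (chr2:112261926-112263269), the smallest of them, measured 43.6, 38.6, 45.4 and 36.4 CPM in paused KO cells and 96, 89.4, 87.3 and 92.2 CPM in normal KO cells. Nop10 in WT cells measured 78.7, 71.6, 71.99 and 69.1 CPM when paused and 149, 149, 133 and 137 CPM in normal culture. No 2 of the 4 groups overlapped, and Nop10 fell by 55.04% in KO and by 48.7% in WT cells (edgeR adjusted p = 2.05e-11 and 2.44e-10). Nhp2 (chr11:51619735-51623714), which binds the guide RNA, measured 113, 104, 124 and 107 CPM in paused KO cells and 237, 218, 244 and 253 CPM in normal KO cells. Nhp2 in WT cells measured 187, 168, 194 and 185 CPM when paused and 276, 292, 324 and 339 CPM in normal culture. Its log2 fold changes were −1.09 ± 0.0692 in KO and −0.75 ± 0.0686 in WT cells, with no overlap of paused and normal libraries.

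Dkc1 (chrX:75095854-75109777) encodes dyskerin, the pseudouridine synthase of the particle. It measured 215, 199, 218 and 202 CPM in paused KO cells and 369.9, 362, 382 and 377 CPM in normal KO cells. Dkc1 in WT cells measured 234, 228, 238 and 242 CPM when paused and 313, 314, 317 and 320.4 CPM in normal culture. The KO libraries were the highest in normal culture and the lowest in paused culture, without overlap in either. Gar1 (chr3:129824912-129831396), the fourth protein, measured 64.4, 55.99, 65.4 and 59.03 CPM in paused KO cells and 98.2, 91.1, 101 and 103 CPM in normal KO cells. Gar1 in WT cells measured 76.7, 74.4, 86.2 and 85.1 CPM when paused and 77.8, 87.8, 104 and 106 CPM in normal culture. Paused and normal WT libraries overlapped, and the fall in WT cells (−0.22, adjusted p = 0.0369) lost its call with libraries 1 and 2 alone (−0.13, adjusted p = 0.166) and when counts were rebuilt from TPM (−0.08, adjusted p = 0.372). The fall in KO cells was −0.69 ± 0.0858 (adjusted p = 2.30e-06).

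The box C/D proteins form the particle in which guide RNAs direct 2′-O-methylation. Fbl, the methyltransferase, averaged 252 ± 16.2 CPM in paused KO cells, 387 ± 13.5 CPM in normal KO cells, 292 ± 12.4 CPM in paused WT cells and 383 ± 32.1 CPM in normal WT cells (SD, n = 4 each). Nop58, one of the paired core proteins, averaged 517 ± 16.7, 620.2 ± 39.2, 419.8 ± 7.38 and 626 ± 16.4 CPM in the same 4 groups in that order. Its partner Nop56 averaged 434 ± 22.8, 499 ± 17.05, 555 ± 12.5 and 573 ± 35.2 CPM. The pair did not move alike: Nop58 fell by 16.6% in KO and 32.9% in WT cells, whereas Nop56 fell by 13.1% in KO cells and had a log2 fold change of −0.05 in WT cells (adjusted p = 0.393). Of the 31-base words in coding transcripts of Fbl, 77.3% also occur in other genes (Tulp4 and pseudogenes), and these genes were assigned 18.9% as many counts as Fbl, so its size is uncertain. Nop56, Mrto4, Npm1 and Pes1 share 32.8% to 36.5% of such words, but the genes that share most with them were assigned at most 0.513% as many counts.

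The 3 nucleolar scaffold genes fell in both genotypes. Ncl, nucleolin, averaged 2772 ± 125 CPM in paused KO cells, 4374 ± 76.1 CPM in normal KO cells, 2148 ± 54.3 CPM in paused WT cells and 3359.6 ± 138 CPM in normal WT cells, and Npm1, nucleophosmin, averaged 2064 ± 82.8, 3117 ± 68.1, 2304 ± 77.8 and 3292 ± 73.9 CPM in that order. Per transcript length Npm1 was the most abundant gene of the list, at 2945 TPM in paused KO cells and 3551 TPM in normal WT cells. Utp15 was the least abundant in normal WT cells, at 32.8 TPM. Nolc1, a chaperone that accompanies snoRNPs to the nucleolus, measured 326, 285, 345 and 296 CPM in paused KO cells and 548, 519.5, 549 and 571 CPM in normal KO cells. Nolc1 in WT cells measured 422, 412, 448 and 442 CPM when paused and 604, 652, 663 and 651 CPM in normal culture. It fell by 42.8% in KO and 32.8% in WT cells, with no overlap.

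Of the 11 small subunit processome genes, 11 fell in KO and 10 in WT cells, with medians of −0.45 and −0.46. Utp3 (chr5:88554462-88556090), a processome protein, measured 79.2, 78.8, 79.1 and 77.04 CPM in paused KO cells and 109, 103, 106 and 108 CPM in normal KO cells. Utp3 in WT cells measured 78.2, 76.8, 80.1 and 79 CPM when paused and 144, 152, 137 and 141 CPM in normal culture. Paused libraries of the genotypes were at the same level, while normal WT libraries were well above normal KO libraries. Several members of the module that first binds the nascent precursor are on the list, and their log2 fold changes in KO and WT cells were −0.48 and −0.66 for Utp4, −0.40 and −0.05 for Utp15, −0.66 and −0.45 for Heatr1, −0.22 and −0.44 for Wdr43 and −0.47 and −0.53 for Wdr75. Of these, Utp15 in WT cells missed the test (adjusted p = 0.153) although its paused and normal libraries did not overlap. Rrp9, a protein of the U3 snoRNP, fell by 34.9% in KO and 34.6% in WT cells, and Utp18, Utp20, Nop14 and Noc4l fell by 0.27 to 0.61 on the log2 scale.

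All 7 DEAD-box helicases, ATP-driven enzymes that remodel the precursor, fell in both genotypes, with medians of −0.43 in KO and −0.61 in WT cells. Ddx21 (chr10:62580251-62602281), a nucleolar helicase that binds precursor RNA and snoRNAs, measured 186, 172, 194 and 176 CPM in paused KO cells and 399, 395, 405 and 418 CPM in normal KO cells. Ddx21 in WT cells measured 396, 400.0, 443 and 434 CPM when paused and 769, 784, 736 and 736 CPM in normal culture. Paused WT and normal KO libraries overlapped at around the same level, and paused KO libraries lay below all others (log2 fold change −1.15 ± 0.0441 in KO and −0.85 ± 0.0438 in WT cells). Ddx52 measured 49.96, 50.2, 50.8 and 49.6 CPM in paused KO cells and 75.8, 80.7, 86.3 and 84.1 CPM in normal KO cells. Ddx52 in WT cells measured 56.8, 56.1, 56.5 and 59.1 CPM when paused and 90.6, 89.5, 95.1 and 96.2 CPM in normal culture. Its log2 fold changes were −0.70 in KO and −0.70 in WT cells, with a difference of −0.00 ± 0.0549 (adjusted p = 0.965), whereas Ddx47 fell by 0.43 in KO and by 0.77 in WT cells. Ddx10, Ddx18, Ddx27 and Ddx56 fell by 0.25 to 0.61. Of the 31-base words of Ddx18, 72.0% are shared with pseudogenes, and those that share most were assigned 0.216% as many counts as Ddx18.

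The 5 late small subunit factors fell in both genotypes. Bysl, needed to release the precursor of the small subunit, fell by 34.7% in KO and 38.3% in WT cells, and Ltv1, an assembly factor that leaves in the cytoplasm, by 29.2% and 30.2%. Nob1, the endonuclease that cuts the mature end of small subunit RNA, fell by 9.75% in KO cells, where its libraries overlapped, and by 30.1% in WT cells. Tsr1 and Rrp12 fell more in KO cells, by 0.41 and 0.31 on the log2 scale, than in WT cells, by 0.19 and 0.15.

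Among the 16 large subunit factors, 15 fell in KO and 13 in WT cells, with medians of −0.52 and −0.47. Nop16 (chr13:54584185-54590090), a nucleolar assembly factor, had the deepest fall of the list. It measured 30.97, 29.6, 31.5 and 29.4 CPM in paused KO cells and 74.99, 75.8, 77.2 and 77.99 CPM in normal KO cells. Nop16 in WT cells measured 39.05, 36.98, 38.2 and 37.7 CPM when paused and 74.1, 78.7, 80.5 and 84.5 CPM in normal culture. Normal libraries of the genotypes overlapped and paused ones did not, and Nop16 fell by 60.3% in KO and by 52.2% in WT cells (edgeR adjusted p = 1.28e-14 and 3.28e-13). Nip7, which acts in large subunit maturation, measured 58.9, 55.7, 61.2 and 57.2 CPM in paused KO cells and 115, 110.1, 114 and 116 CPM in normal KO cells. Nip7 in WT cells measured 76.2, 70.7, 74.4 and 72.2 CPM when paused and 133, 135, 145 and 150.4 CPM in normal culture. Mrto4, which holds the place of the stalk proteins during assembly, measured 66.9, 65.05, 71.3 and 65.4 CPM in paused KO cells and 114, 108, 114 and 114 CPM in normal KO cells. Mrto4 in WT cells measured 87.1, 81.4, 88.3 and 84.3 CPM when paused and 130.1, 136, 146 and 151 CPM in normal culture. Both fell without overlap, and their responses did not pass the test of a difference between genotypes (adjusted p = 0.814 and 0.854). The log2 fold changes were −0.96 in KO and −0.94 in WT cells for Nip7, and −0.74 in KO and −0.73 in WT cells for Mrto4.

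The mRNAs of Pes1, Bop1 and Wdr12, whose proteins form the PeBoW complex needed to process the large subunit precursor, all fell in both genotypes. Bop1 measured 127, 120.3, 136 and 122 CPM in paused KO cells and 215, 203, 214 and 220.0 CPM in normal KO cells. Bop1 in WT cells measured 192, 182, 196 and 191 CPM when paused and 245, 257, 288 and 298 CPM in normal culture. Its paused KO libraries lay far below the other 3 groups. Log2 fold changes in KO and WT cells were −0.75 and −0.51 for Bop1, −0.46 and −0.28 for Pes1 and −0.60 and −0.71 for Wdr12. Of the nucleolar GTPases, Gnl3 (nucleostemin) fell by 32.1% in KO and 25.3% in WT cells, and Gnl2 by 6.77% in KO cells, with a log2 fold change of −0.07 in WT cells (adjusted p = 0.0605). Nop2, an RNA methyltransferase, Rrs1, Noc3l, Brix1 and Rrp1 fell in both genotypes, by 0.12 to 0.55 on the log2 scale, and Ebna1bp2 and Rrp1b fell by 0.51 and 0.52 in KO cells, with values of −0.11 and −0.11 in WT cells that did not pass.

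**Figure D2:**
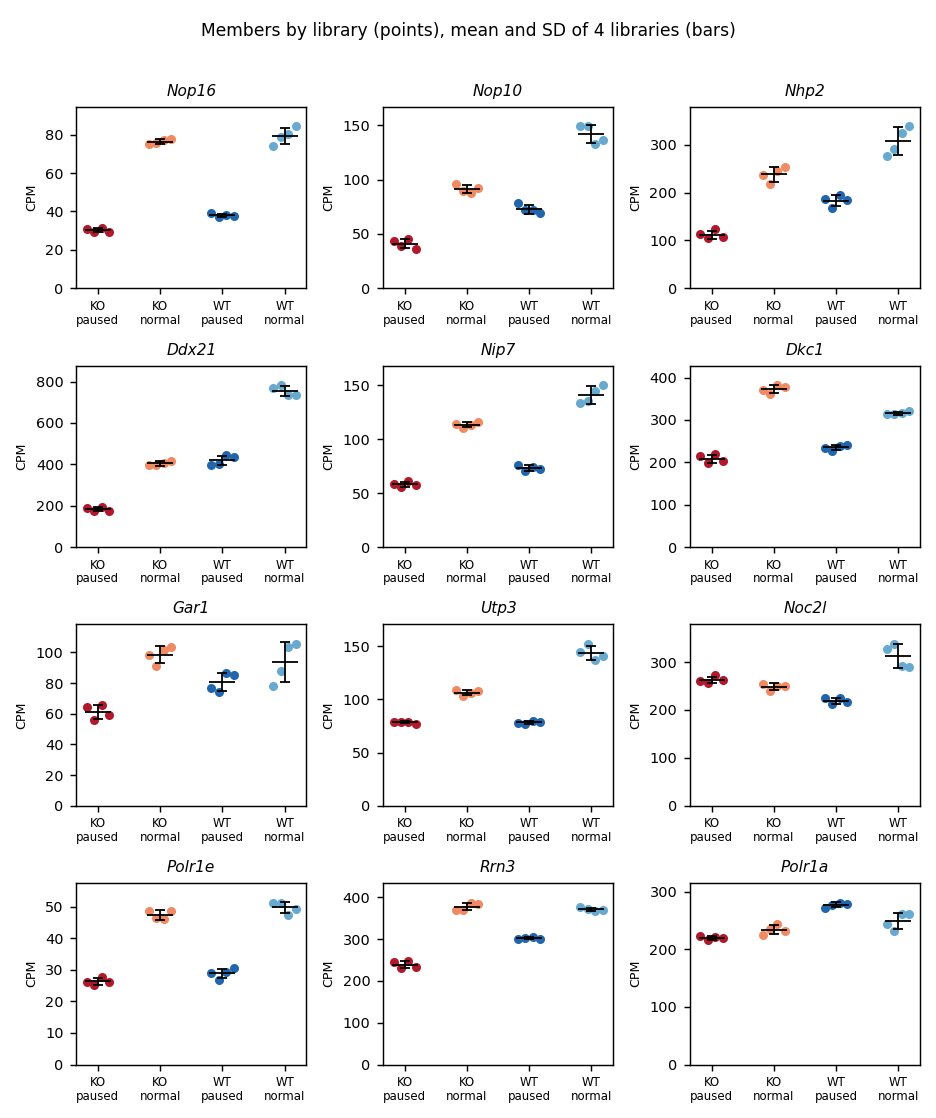
CPM (y axis, from 0) of 12 genes in each library (points) with the mean and SD of 4 libraries (bars), in paused KO, normal KO, paused WT and normal WT cells. Nop16, Nop10, Nhp2, Ddx21 and Nip7 are lower in paused than in normal libraries of both genotypes, Noc2l is lower in paused cells only in WT, and Polr1a is higher in paused than in normal WT libraries.

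The size of the response differed between genotypes for 27 of the 55 genes. The response was more negative in KO than in WT cells for 18 genes, where 24.5% of all tested genes had a more negative response, and more positive for 9, where 17.4% had a more positive one. Of these, 14 genes fell in both genotypes and further in KO cells, and 8 fell in both and further in WT cells, counts with no computed share over all tested genes. With libraries 1 and 2 alone 28 genes differed, and with libraries 3 and 4 alone 24. These were partly other genes: 24 of the 27 calls were shared with libraries 1 and 2 alone and 22 with libraries 3 and 4 alone. The median difference of the responses, KO minus WT on the log2 scale, was −0.03 over the list and −0.03 over all tested genes.

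Noc2l (chr4:156236010-156247616), a large subunit factor that also binds p53, had the largest difference. It measured 259.6, 256, 272 and 262 CPM in paused KO cells and 255, 239.8, 249 and 251 CPM in normal KO cells, so that paused libraries lay just above normal ones. In WT cells it measured 224, 212, 225 and 216 CPM when paused and 328, 338, 293 and 290.1 CPM in normal culture, a fall of 29.8%. The responses differed by 0.59 ± 0.0636 on the log2 scale (edgeR adjusted p = 1.13e-06), by 0.67 with libraries 1 and 2 alone and by 0.51 with libraries 3 and 4 alone. The increase in KO cells (0.08, adjusted p = 0.136) did not pass, but did with libraries 3 and 4 alone (0.10, adjusted p = 0.0234) and without WT normal library 2 (0.10, adjusted p = 0.0371).

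Utp3 was next among the positive differences, at 0.43 ± 0.0468 (adjusted p = 1.09e-06), followed by Nob1 (0.37), Brix1 (0.36), Ddx47 (0.35) and Nop58 (0.31). In Utp3, Nob1, Brix1 and Ddx47 the paused levels of the genotypes were close and the normal WT level was above the normal KO level, as with 78.7 ± 2.51, 106 ± 1.22, 78.6 ± 2.92 and 134 ± 1.69 CPM of Ddx47 in paused KO, normal KO, paused WT and normal WT cells. In Nop58, by contrast, normal levels were alike and the paused WT level was the lowest.

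The largest negative differences were those of Gar1 (−0.47 ± 0.121, adjusted p = 0.00526) and Dkc1 (−0.41 ± 0.0477, adjusted p = 2.41e-06), and with Nhp2 (−0.34 ± 0.0967, adjusted p = 0.00903) 3 of the 4 H/ACA genes fell further in KO cells. Nop10 had −0.19 ± 0.0878 (adjusted p = 0.0895) and did not pass. Rrp1b (−0.41), Ebna1bp2 (−0.40), Rrn3 (−0.36), Utp15 (−0.34), Ddx21 (−0.30) and Nop16 (−0.27) followed. In normal WT libraries Rrp1b (229.7 ± 22.3 CPM) and Ebna1bp2 (172 ± 23.8 CPM) scattered more than in paused WT libraries (212.5 ± 7.48 and 159.4 ± 3.71 CPM). The differences of Bop1 (−0.24, adjusted p = 0.0181) and Nolc1 (−0.23, adjusted p = 0.0175) lost their call without WT normal library 2, at −0.17, adjusted p = 0.0931 for Bop1 and −0.20, adjusted p = 0.0548 for Nolc1. With 1 pair alone, Bop1 lost its call in libraries 3 and 4 (−0.14, adjusted p = 0.101) and Nolc1 in libraries 1 and 2 (−0.22, adjusted p = 0.0621).

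KO and WT cells of the same culture differed in both directions. In paused culture 29 of the 55 genes were lower and 14 higher in KO than in WT cells, where 34.5% of all tested genes were lower and 30.8% higher. In normal culture 27 were lower and 14 higher, where 34.1% of all tested genes were lower and 34.1% higher. The shares of the list lay above these backgrounds for lower and below them for higher genes, and the median log2 fold changes were small, −0.11 in paused and −0.07 in normal culture. In both cultures 17 genes were lower and 10 higher in KO cells, 3 were called in opposite directions in the 2 cultures and 1 in neither. For these joint counts no share over all tested genes was computed, so they only describe the list.

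The largest difference was that of Ddx21, which was 56.5% lower in paused KO than in paused WT cells and 46.6% lower in normal KO than in normal WT cells (−1.20 ± 0.0442 and −0.90 ± 0.0438, edgeR adjusted p = 1.02e-13 and 2.71e-12). Nop10 followed with −0.83 in paused and −0.64 in normal culture, Nhp2 with −0.71 and −0.37, and Bop1 with −0.59 and −0.35. Higher in KO cells in both cultures were Wdr75 (0.49 in paused and 0.42 in normal culture), Nop14 (0.46 and 0.32), Ddx18 (0.40 and 0.34) and Ncl (0.37 and 0.38). The 3 genes called in opposite directions were Noc2l (0.26 in paused and −0.33 in normal culture), Dkc1 (−0.17 and 0.24) and Utp15 (−0.18 and 0.16).

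Among the polymerase genes the genotype differences reached −0.34 on the log2 scale in paused culture and −0.12 in normal culture. In paused culture Rrn3 (−0.34) and Polr1a (−0.33) were lower in KO cells, as were Polr1e (−0.13) and Ubtf (−0.11), and in normal culture Polr1b (−0.12), Polr1c (−0.11) and Polr1a (−0.09). Several of these calls were fragile: Ubtf in paused culture was lost with DESeq2 (−0.10, adjusted p = 0.0563) and Polr1e in paused culture without WT paused library 4 (−0.10, adjusted p = 0.0633). In normal culture Polr1c was lost without WT normal library 4 (−0.08, adjusted p = 0.0948) and Polr1a without KO normal library 1 (−0.07, adjusted p = 0.139). With libraries 1 and 2 alone none of these 4 calls held: Ubtf had −0.08, adjusted p = 0.172 and Polr1e −0.11, adjusted p = 0.0775 in paused culture. Polr1c had −0.06, adjusted p = 0.394 and Polr1a −0.05, adjusted p = 0.396 in normal culture.

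**Figure D3:**
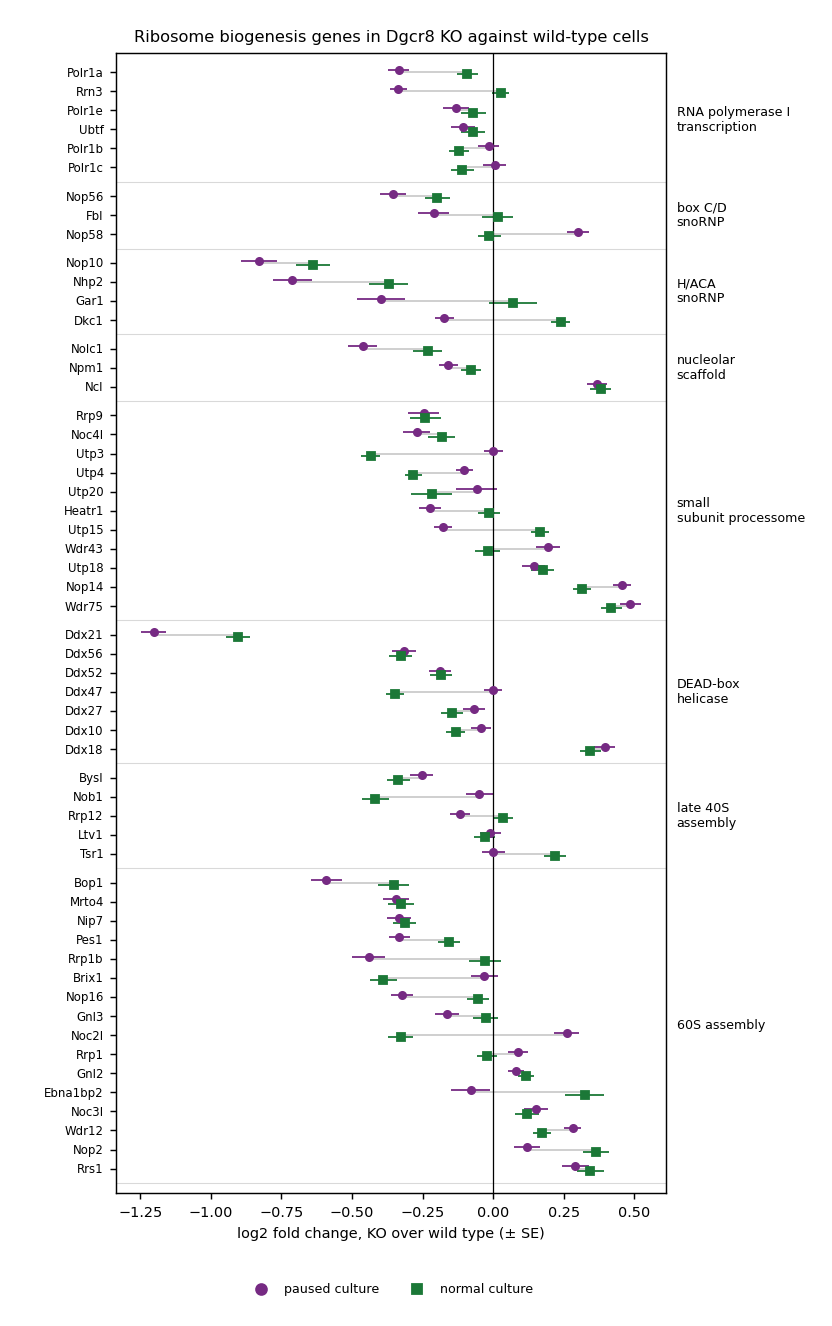
Log2 fold change of KO over WT cells (x axis, bars are SE) for each of the 55 genes, grouped by role, in paused culture (purple circles) and normal culture (green squares), from 4 libraries per group. Ddx21 lies furthest left in both cultures, Wdr75, Nop14, Ddx18 and Ncl lie right of 0 in both, and Noc2l lies on opposite sides of 0.

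The fall extended to the rest of the pathway. Among 115 other pathway genes, chosen by function, 99 fell and 4 rose in KO cells and 96 fell and 5 rose in WT cells, with medians of −0.44 and −0.38. Of all tested genes, 32.8% fell and 34.4% rose in KO cells and 27.5% fell and 33.3% rose in WT cells. The medians over all tested genes were 0.02 in KO and 0.04 in WT cells. Of 14 other RNA polymerase I genes 11 fell in KO and 11 in WT cells, of 40 small subunit genes 36 and 34, of 39 large subunit genes 35 and 32, and of 22 genes of RNA cleavage and decay 17 and 19. The responses differed between genotypes for 52 of the 115, with 35 more negative and 17 more positive in KO cells, where 24.5% of all tested genes were more negative and 17.4% more positive. Genes that rose in both genotypes were Exosc5, a subunit of the RNA exosome (0.19 in KO and 0.57 in WT cells), the exonuclease gene Xrn2 (0.12 and 0.22) and the helicase gene Ddx55 (0.35 and 0.11).

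Among the polymerase subunits Polr2l, shared by all nuclear RNA polymerases, averaged 27.1 ± 1.26 CPM in paused KO cells, 56.01 ± 1.19 CPM in normal KO cells, 47.5 ± 2.16 CPM in paused WT cells and 82.4 ± 1.55 CPM in normal WT cells. It fell by 51.6% in KO and 42.3% in WT cells, and the shared subunits Polr2k and Polr2h fell by 46.3% and 35.4% in KO cells and by 37.2% and 28.7% in WT cells. Pno1, a late small subunit factor, averaged 86.7 ± 0.960 CPM in paused KO cells, 142 ± 2.66 CPM in normal KO cells, 95.1 ± 1.10 CPM in paused WT cells and 195 ± 5.93 CPM in normal WT cells. Its log2 fold changes were −0.71 in KO and −1.03 in WT cells, and those of the other small subunit genes with large falls were −0.80 and −0.92 for Wdr3 and −0.84 and −0.83 for Emg1, an RNA methyltransferase.

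The large subunit gene Eif6, whose product keeps the subunits apart until assembly is complete, fell by 47.7% in KO and 36.04% in WT cells. Mak16 had log2 fold changes of −0.85 in KO and −0.77 in WT cells, and Rsl1d1 of −0.82 and −0.69. Of the cleavage genes, Pop1, a protein of RNase MRP, had −1.005 in KO and −0.67 in WT cells, and the exosome subunits Exosc2 and Exosc9 had −0.77 and −0.90 in KO and −1.03 and −0.62 in WT cells.

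**Figure D4:**
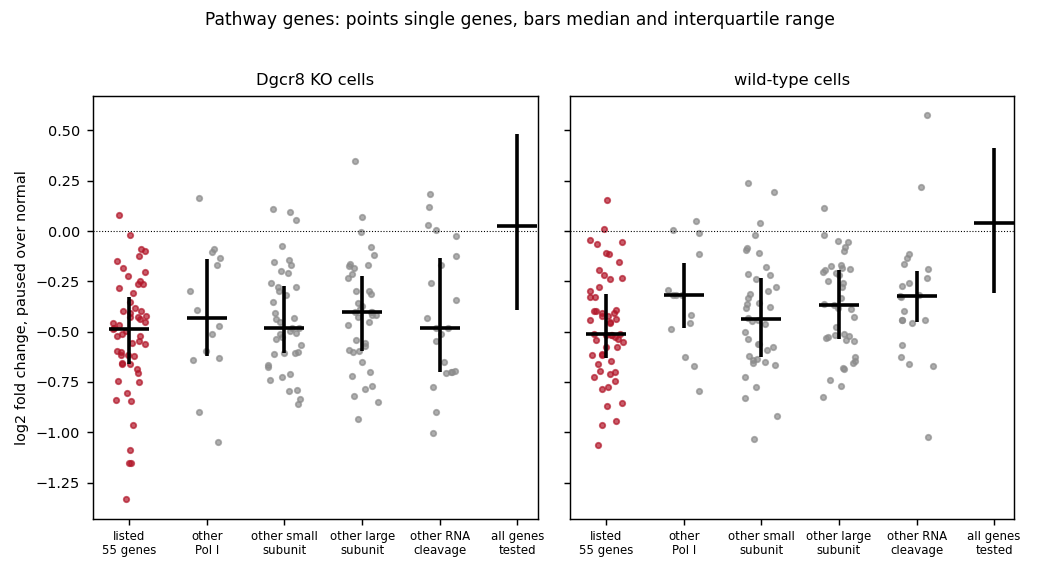
Log2 fold change of paused over normal culture (y axis) in KO cells (left) and WT cells (right) for the 55 genes (red points), for other pathway genes in 4 lists (grey points) and for all 18944 tested genes, with the median and interquartile range as bars. The medians of the 55 genes and of the 4 other lists lie between −0.51 and −0.32, and that of all tested genes at 0.02 in KO and 0.04 in WT cells.

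Myc and Mycn, regulators of the pathway, moved in opposite directions in the genotypes. Myc averaged 57.6 ± 10.1 CPM in paused KO cells, 78.7 ± 12.2 CPM in normal KO cells, 166 ± 5.45 CPM in paused WT cells and 104 ± 19.3 CPM in normal WT cells (SD, n = 4 each), a fall in KO cells (−0.45 ± 0.146, adjusted p = 0.0134) and a rise in WT cells (0.68 ± 0.145, adjusted p = 8.58e-04). Mycn averaged 175 ± 9.89 CPM in paused KO cells, 123 ± 14.6 CPM in normal KO cells, 168 ± 29.9 CPM in paused WT cells and 248 ± 9.89 CPM in normal WT cells, a rise in KO cells (0.51 ± 0.106) and a fall in WT cells (−0.56 ± 0.105). The 55 genes had like median falls in both genotypes, and the part of Myc and Mycn in these falls was not tested.

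The transcripts of a gene need not all encode protein, so the share of each gene's TPM in transcripts annotated as retained intron, NMD target or processed transcript, here called the non-coding share, was compared as a measure separate from the gene's total. It could be tested in 45 of the 55 genes, with limma on log2 ratios over 6348 genes. In KO cells the share was higher in paused than in normal culture for 29 genes and lower for 6, where 40.8% of all genes tested were higher and 8.13% lower. In WT cells it was higher for 17 and lower for 8, where 18.7% were higher and 12.4% lower. The counts of the list lay above the backgrounds, but the direction in KO cells was that of genes at large, with a median log2 ratio change of 0.47 for the list and 0.32 over all genes tested.

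Among the genes with a higher share was Gnl2. Its non-coding share was 10.6%, 11.1%, 11.1% and 12.6% in paused KO libraries and 6.14%, 5.91%, 5.10% and 5.63% in normal KO libraries. WT libraries had Gnl2 shares of 12.2%, 10.18%, 12.6% and 12.6% when paused and 4.73%, 5.16%, 6.65% and 5.93% in normal culture. Paused libraries lay above normal ones without overlap in both genotypes, with log2 ratio changes of 1.07 in KO and 1.17 in WT cells (limma adjusted p = 1.41e-05 and 1.35e-05). Ddx52 changed by 1.09 in KO and 1.36 in WT cells, with shares of 10.6% ± 3.10 in paused KO cells, 5.05% ± 0.617 in normal KO cells, 11.5% ± 0.620 in paused WT cells and 4.73% ± 0.508 in normal WT cells (SD, n = 4 each). Fbl changed by 1.05 in KO and 0.59 in WT cells, at shares of only 3.33% ± 0.227 in paused KO cells, 1.63% ± 0.0432 in normal KO cells, 2.56% ± 0.345 in paused WT cells and 1.71% ± 0.246 in normal WT cells.

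In other genes the non-coding share was lower in paused cells. Polr1c had 17.9%, 18.4%, 15.3% and 14.3% in paused KO libraries and 31.1%, 33.1%, 27.6% and 31.7% in normal KO libraries. WT libraries had Polr1c shares of 9.35%, 20.1%, 17.4% and 21.3% when paused and 23.4%, 27.8%, 28.2% and 28.1% in normal culture. Its NMD transcript Polr1c-206 held 10.3% ± 2.09 of the gene's TPM in paused KO cells, 26.9% ± 2.16 in normal KO cells, 12.8% ± 5.79 in paused WT cells and 22.3% ± 2.60 in normal WT cells. For Rrp9 the shares were 22.98% ± 3.51 in paused KO cells, 32.3% ± 1.75 in normal KO cells, 19.95% ± 2.07 in paused WT cells and 32.3% ± 2.04 in normal WT cells. The log2 ratio changes were −1.18 in KO and −0.90 in WT cells for Polr1c, −0.69 and −0.94 for Rrp9 and −0.80 and −1.16 for Nhp2 (limma adjusted p up to 0.0188). Nhp2 shares were only 2.85% ± 0.556 in paused KO, 4.89% ± 0.639 in normal KO, 2.44% ± 0.663 in paused WT and 5.48% ± 1.91 in normal WT cells. Its paused and normal WT libraries overlapped (2.04% to 3.42% and 2.95% to 7.36%).

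The change in share differed between genotypes for 6 genes, all with a more positive change in KO than in WT cells. Of all genes tested, 10.7% were in this direction and 1.32% in the other. The median difference of the log2 ratio changes was 0.17 over the 45 genes of the list and 0.25 over all genes tested. The 6 genes were Tsr1 (1.39), Ddx56 (1.20), Ubtf (0.93), Bop1 (0.92), Rrp1b (0.79) and Gnl3 (0.57), and without WT normal library 4 the count was 10. Tsr1 had 11.03%, 10.9%, 13.2% and 12.3% in paused KO libraries and 6.402%, 7.09%, 8.001% and 6.39% in normal KO libraries. WT libraries had Tsr1 shares of 7.54%, 8.61%, 5.55% and 7.60% when paused and 12.03%, 11.2%, 8.65% and 9.63% in normal culture. The share was thus higher in paused KO cells and lower in paused WT cells than in their normal cultures. In Tsr1, Ddx56 and Bop1 the WT normal libraries 1 and 2 lay above libraries 3 and 4, and the shares were not refitted with 1 pair alone. Paused and normal WT libraries overlapped for Ddx56, Ubtf, Bop1, Rrp1b and Gnl3. Normal WT shares spanned 2.35% to 4.07% for Ubtf, 53.1% to 68.4% for Rrp1b and 24.9% to 30.3% for Gnl3. Paused WT shares spanned 1.92% to 2.81%, 55.8% to 60.2% and 29.8% to 31.2% in that order. Of the 31-base words of Tsr1, 35.7% also occur in other genes, chiefly Srr, which was assigned 1.48% as many counts as Tsr1.

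**Figure D5:**
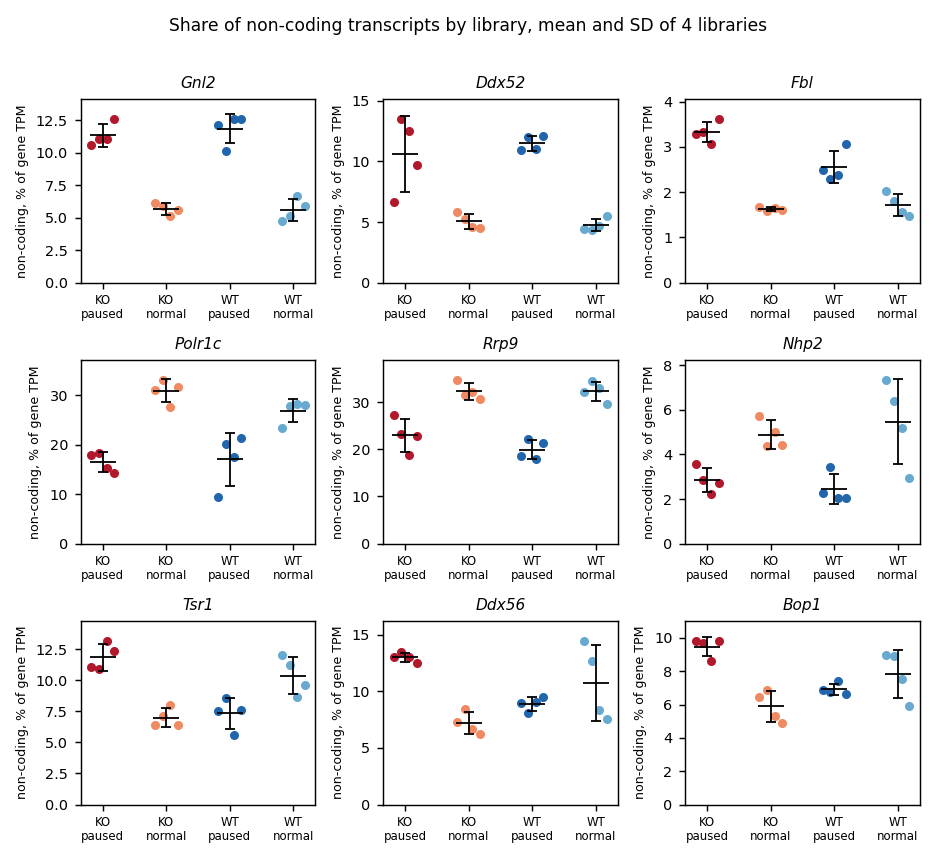
Non-coding share of the gene's TPM in percent (y axis, from 0) for 9 genes in each library (points) with the mean and SD of 4 libraries (bars), in paused KO, normal KO, paused WT and normal WT cells. Gnl2, Ddx52 and Fbl are higher and Polr1c and Rrp9 lower in paused cells of both genotypes, while Tsr1, Ddx56 and Bop1 are higher in paused cells in KO only.

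The protein-coding transcripts of Nop56 took different shares in paused and normal culture, with Nop56-202 above Nop56-201 in each group. Nop56-202 held 67.5% ± 0.654 of the gene's TPM in paused KO cells, 46.6% ± 0.797 in normal KO cells, 60.05% ± 0.564 in paused WT cells and 43.1% ± 0.402 in normal WT cells (SD, n = 4 each). Nop56-201 held 4.53% ± 0.517, 18.02% ± 1.36, 11.6% ± 0.625 and 23.3% ± 2.99 in that order. These shares are a description of estimates chosen for their size and were not tested. Nop56 is one of 7 genes of the list (12.7%) that hold snoRNA genes on their own strand, as do 239 of 16945 tested protein-coding genes (1.41%). The others are Nop58, Dkc1, Ncl, Wdr43, Tsr1 and Gnl3, and together they hold 21 snoRNA genes, among them Snord57 and Snord110 in Nop56 and Snord11 and Snord70 in Nop58. Most of the TPM of Ncl was assigned to the retained-intron transcript Ncl-202, 82.2% ± 0.630 in paused KO cells, 83.6% ± 0.344 in normal KO cells, 82.5% ± 0.490 in paused WT cells and 84.3% ± 0.933 in normal WT cells, a feature noticed in the values.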

How the data were processed

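Poly(A) RNA of 16 libraries was sequenced (NEBNext kits, per the labels' protocols). The authors deposited 1 table per library with estimated counts, TPM and effective lengths per transcript, per the file headers. These were made with kallisto on GRCm38, per the submitters' processing notes; the version is not given in the sources used here. The deposited TPM are scaled by effective length, per the file headers.

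Estimated counts were summed per gene through GENCODE M21 and rounded to whole numbers. Of 118489 transcripts, 116728 matched; the other 1761 held 0.656% to 0.712% of the counts. Libraries held 88377380 to 116646028 counts. With edgeR 4.0.16 (R 4.3.3), genes passing filterByExpr (minimum count 10) were scaled by TMM and fitted with 1 mean per group over all 16 libraries. Robust quasi-likelihood F tests gave 5 contrasts, with Benjamini-Hochberg adjusted p under 0.05 over 18944 genes. SE is the log2 fold change divided by the root of F. Non-coding shares were tested with limma 3.58.1 on log2((non-coding TPM + 0.1)/(coding TPM + 0.1)) for genes with a mean of at least 1 TPM. TPM are compared only within a group. On simulated counts the fit recovered 94% and 97% of genes changed by a log2 fold change of 1 and 78% and 76% of those changed by 0.5 for pausing in KO and WT cells, and 84% and 67% for the interaction.

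The genes and lists were chosen with earlier results of these data known. Values in every library are given for the 6 polymerase I genes, the 8 others with the largest mean pausing change, the 4 with the largest interaction, the 4 with the largest Dgcr8 loss change and those that rose; transcripts were picked for their size, and the CCGGAAG promoters after the motif counts. Other genes are up to 3 per list, Myc and Mycn, plus Exosc5, Xrn2 and Ddx55, named after their values were seen. The alternatives were DESeq2 1.42.0, other scalings and filters, a replicate block and leaving out libraries. The labels do not say that libraries came from separate cultures, so the p-values reflect the scatter of these libraries alone, and that scatter may be technical.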

Additional observations from a re-analysis of the deposited data

Results flagged for a closer look

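In 2 of 76 groups of 4 libraries examined, 1 library lay far from the other 3, where chance flags about 1 group in 20. Mrto4 measured 107.5 CPM in KO normal library 2, against 113.8, 114.2 and 114.4 CPM in the other KO normal libraries. Utp3 measured 77.04 CPM in KO paused library 4, against 78.83, 79.11 and 79.2 CPM in the other KO paused libraries.

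The response to pausing differed between KO and WT cells for 27 genes (edgeR interaction test, log2 difference of the KO minus the WT response). Of all tested genes, 24.5% had a more negative and 17.4% a more positive response in KO cells. The response was more negative in KO cells for Gar1 (−0.4689), Dkc1 (−0.4129), Rrp1b (−0.4115), Ebna1bp2 (−0.4035), Rrn3 (−0.3631), Utp15 (−0.3437), Nhp2 (−0.3414), Ddx21 (−0.2977) and Nop16 (−0.2692). The same direction held for Nop2 (−0.2466), Polr1a (−0.2437), Bop1 (−0.2394), Nolc1 (−0.2306), Fbl (−0.2259), Tsr1 (−0.2181), Heatr1 (−0.2086), Pes1 (−0.1745) and Rrp12 (−0.1529). It was more positive in KO cells for Nop14 (0.1406), Utp4 (0.1812), Wdr43 (0.2142), Nop58 (0.314), Ddx47 (0.3482), Brix1 (0.3578), Nob1 (0.3684), Utp3 (0.4344) and Noc2l (0.5883).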

How the results depend on the processing

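The median change of the 55 genes under pausing in WT cells (−0.51) was −0.4424 with counts rebuilt from TPM, −0.5555 with the 2 WT groups alone and −0.4421 with libraries 3 and 4 alone, and −0.5226 to −0.4659 when single libraries were left out. The median interaction (−0.03) ranged over −0.0536 to 0.008104 when single libraries were left out, and was positive without WT normal library 2 (0.008104) and library 3 (0.004632); the cause was not tested. The 6 genes whose non-coding share responded differently became 4 to 10 when single libraries were left out. Over all alternatives 51 to 53 genes changed under pausing in KO cells and 48 to 52 in WT cells, and 24 to 30 had an interaction. Deviations of same-numbered libraries correlated weakly (r from −0.0491 to 0.0975 over 24 pairs), as did those of differently numbered libraries (−0.0834 to 0.0823). Still, 13 of 16 libraries matched their own number best, and whether libraries of a number share a deviation was not tested. With the replicate number as a block 53 genes changed in KO and 50 in WT cells, and 28 had an interaction. Over the alternatives for the 19 genes shown by library, 51 values lost and 11 gained their call, and no called value turned direction. Over all 55 genes, 2 had the opposite sign under pausing in WT cells with libraries 1 and 2 alone, and 4 to 6 in the interaction with 1 pair of libraries alone or with DESeq2.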
